A study of Oryza sativa with 32 samples.

Results

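Shoots of the transgenic rice line AGR3/8 were compared with shoots of wild type rice across all probe sets of an expression array. The comparison took the 8 arrays whose labels name wild type shoot or AGR3/8 shoot, 4 of each, out of 32 in the series. It was fitted together with the 8 shoot arrays of the other lines, AGR1/7 and AGR1/8. The wild type is the cultivar Nipponbare. The 3 lines carry OsANT1:HvAlaAT, a barley alanine aminotransferase driven by the OsANT1 promoter, which the labels call root-specific. AGR3/8 is a single insertion line, so the effects of the transgene and of its insertion site cannot be told apart. No probe set tested is named for the barley gene. Plants of every group grew in hydroponics with 5 mM ammonium. The light period lasted 14 h at 750 µE and the dark period 10 h, with air at 28 °C and a humidity of 70%. Total RNA was taken at maximum tillering, at mid-day, from 4 biological replicates per group, and the labels say that replicates were labelled and hybridised in parallel. The sources used here do not say whether plants were pooled within a replicate, and p-values measure the spread between these samples.

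Alanine aminotransferase moves an amino group between alanine and 2-oxoglutarate, giving pyruvate and glutamate, and so links nitrogen to carbon metabolism. Ammonium taken up by rice roots is fixed mainly by glutamine synthetase and glutamate synthase, and amino acids travel to the shoot in the xylem. The shoot is where light capture, carbon fixation and much of the re-assimilation of nitrogen take place.

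The array values are intensities on a linear scale. Changes are differences of log2(intensity + 16), which understates the change of dim probe sets, each with its standard error (SE). A probe set was called where the Benjamini-Hochberg adjusted p of limma over all 38129 probe sets tested was under 0.05. Of these, 331 were called, which is 0.868%. AGR3/8 was higher at 174 (0.456%) and lower at 157 (0.412%). At 42 higher and 34 lower called probe sets the difference was at least 1 on the log2 scale. At an unadjusted p under 0.05 there were 5587. The median change of all probe sets tested was -0.02. All 4 AGR3/8 arrays lay above all 4 wild type arrays at 3.53% of the probe sets tested and below them at 4.24%. Of the 331 called, 198 matched a single rice gene, 130 matched none and 3 matched several, and 37 of them, for 36 genes, carried a descriptive gene name.

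The count of 331 calls changed when single arrays were left out. Without each of the 8 arrays in turn the number called ran from 107 to 1411. It was 144 without wild type replicate 1, 117 without wild type replicate 2, 133 without wild type replicate 3, 117 without AGR3/8 replicate 2, 107 without AGR3/8 replicate 3 and 205 without AGR3/8 replicate 4. Without AGR3/8 replicate 1 it was 1411, with 953 higher and 458 lower. Without wild type replicate 4 it was 243. Under quantile normalization, which gives every array the same distribution of values, 202 were called, 114 higher and 88 lower. Of the 331 called probe sets, 182 were called under quantile normalization, 133 without wild type replicate 1 and 111 under both taken one at a time. All 331 kept their direction under quantile normalization. Under all 8 omissions of 1 array and under quantile normalization 84 stayed called, 47 higher and 37 lower. Under all 21 alternatives tried 40 stayed called, 28 higher and 12 lower, of which 13 matched a single gene and 1 had a descriptive name.

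Some arrays stood apart within their groups. Wild type replicate 1 had a mean correlation of 0.977 with its own group, against 0.982 to 0.983 for the other wild type shoots, and a fitted array weight of 0.559, the lowest of the 16 shoot arrays. Among AGR3/8 shoots, replicates 2 and 3 had the highest readings for bright control transcripts. The added control transcript CreX, read at its 3′ end, gave 5194.9, 10385.3, 11135.3 and 7560.1 in AGR3/8 replicates 1 to 4, and 4513.5 to 5759.5 in wild type. For BioDn, a less abundant added transcript, the values were 1764.4, 3207.9, 3195.5 and 2414.4 against 1752.3 to 2103. The dim added transcripts BioC (277.5 to 308.4 against 255.5 to 312.8) and BioB (126.9 to 146.4 against 134.0 to 176.4) overlapped between the groups. The ratio of the 3′ to the 5′ GAPDH control probe set, a measure of RNA and label quality, was 4.40 and 3.76 in AGR3/8 replicates 2 and 3, 2.96 and 2.74 in replicates 1 and 4, and 2.51 to 2.73 in wild type.

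The change between AGR3/8 and wild type moved with brightness. Probe sets with a mean log2 value under 6 had a median change of -0.01 and those from 6 to 8 of -0.07. The median was 0.15 from 10 to 11, 0.33 from 11 to 12 and 0.62 at 12 and over. Under quantile normalization it lay between -0.02 and 0.03 in every one of these brightness classes. AGR1/7 and AGR1/8, set against the same wild type arrays, had medians of 0.13 and 0.15 in the brightest class. Of the 174 higher calls, 67 had a mean log2 value of 10 or more, and 12 of those 67 were called under quantile normalization, against 89 of the other 107 higher calls. Of the 157 lower calls, 5 were that bright. The part of the brightness shift in each bright gene's change was not tested gene by gene, and values under quantile normalization are therefore given beside the bright genes.

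**Figure D1:**
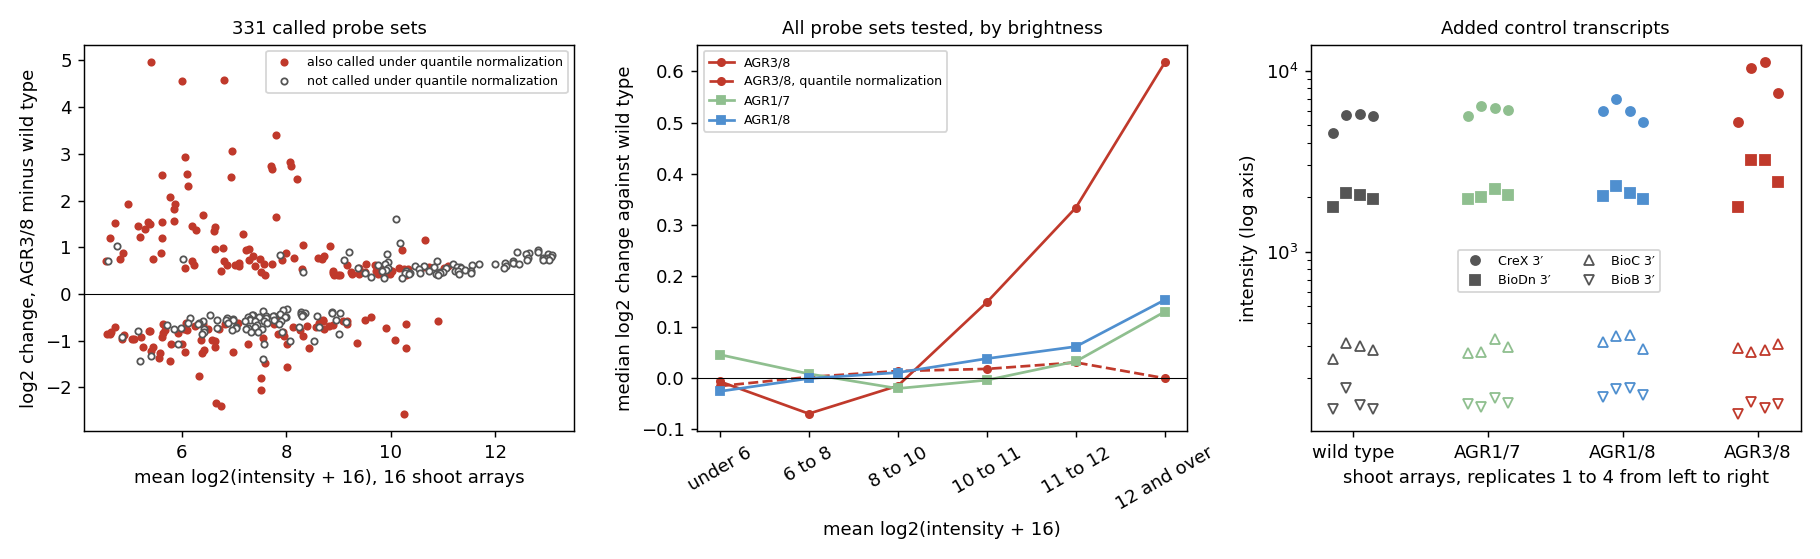
Left, the log2 change (AGR3/8 minus wild type shoots) of the 331 called probe sets against their mean log2(intensity + 16) over 16 shoot arrays, filled where also called under quantile normalization. Middle, the median log2 change against wild type of all 38129 probe sets tested in classes of brightness, for the 3 lines and for AGR3/8 under quantile normalization. Right, intensities of 4 added control transcripts on each shoot array. The AGR3/8 median reaches 0.62 in the brightest class and the CreX and BioDn readings of AGR3/8 replicates 2 and 3 are the highest.

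The largest differences were at probe sets that matched no named gene, and most of these were near background in wild type. Os.20851.1.A1_at, which matched no gene, read 6.3, 3.2, 0.9 and 1.1 in wild type shoots and 466.5, 371.2, 613.2 and 971.2 in AGR3/8 shoots. No array of one group lay within the other, and the change was 4.96 ± 0.21 (SE, n = 4 against 4, adjusted p = 1.75e-10 in limma). The other lines stayed at 5.1 or lower, and AGR3/8 differed from their mean by 5.06 ± 0.19 (adjusted p = 9.23e-12). It was also high in AGR3/8 roots, at 350.7, 262.8, 259.9 and 397.6, against at most 2.2 in wild type roots. A second probe set of the same design group, Os.20851.1.A1_x_at, changed by 4.55 ± 0.24 (adjusted p = 3.08e-09).

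Os.55261.1.S1_at, also without a matched gene, was high in AGR3/8 shoots. It read 19.6, 37.2, 19.1 and 19.6 in wild type shoots and 972.4, 1470.5, 749.5 and 657.6 in AGR3/8 shoots, a change of 4.57 ± 0.28 (adjusted p = 2.29e-08). AGR3/8 roots read 6.4 to 12.3. The effect in shoot exceeded that in root by 3.98 (adjusted p = 6.31e-08 in limma). AGR1/7 shoots, at 4.1 to 15.6, were close to wild type, and AGR1/8 shoots, at 93.9 to 304.2, lay between. AGR3/8 exceeded the mean of these lines by 3.83 (adjusted p = 5.34e-08).

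Other probe sets were high in AGR3/8 and in AGR1/8. OsAffx.20082.1.S1_at read 38.1, 37.9, 38.3 and 34.2 in wild type and 529.4, 469.5, 599.4 and 590.5 in AGR3/8, a change of 3.40 ± 0.19 (adjusted p = 6.18e-09), beside 493.1 to 589.8 in AGR1/8 and 77.8 to 208.6 in AGR1/7. LOC4340325 read 21.4, 2.2, 12 and 19.4 in wild type and 128.9, 178.0, 156.6 and 156.6 in AGR3/8, a change of 2.57 ± 0.22 (adjusted p = 3.43e-06), beside 109.5 to 227.8 in AGR1/8 and 6.1 to 20.4 in AGR1/7. At both the AGR3/8 values lay clear of wild type and within or near the range of AGR1/8. In root LOC4340325 differed more, by 4.24 ± 0.12. LOC4340325 was chosen after its values were seen.

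LOC4335304 was read by 3 probe sets that moved together in shoot. Os.46517.1.S1_at gave 3.9, 5.0, 5.3 and 3.6 in wild type and 91.2, 148.8, 135.7 and 207.9 in AGR3/8, a change of 2.94 ± 0.21 (adjusted p = 1.90e-07). The other probe sets changed by 2.82 ± 0.28 and 2.74 ± 0.32. The groups did not overlap in any of the 3. In AGR3/8 roots Os.46517.1.S1_at stayed at 4.9 to 8.4, and the effect in shoot exceeded that in root by 2.76 (adjusted p = 5.65e-07). AGR1/7 shoots read 23.5 to 56.7 and AGR1/8 shoots 89.4 to 142.0. No descriptive name for LOC4335304 is used here, since the gene table gives none.

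OsAffx.22999.1.S1_at read 1.6, 12.5, 11.4 and 5.0 in wild type shoots and 79.0, 239.3, 210.4 and 244.9 in AGR3/8 shoots, a change of 3.07 ± 0.32 (adjusted p = 4.03e-05). Replicate 1 was the lowest AGR3/8 value and still lay above every wild type array. In roots the difference was larger, with 27.8 to 45 in wild type and 4690.2 to 4937.7 in AGR3/8, and the shoot effect minus the root effect was -3.49 (adjusted p = 2.47e-06). AGR1/7 shoots (79.7 to 225.7) and AGR1/8 shoots (206.6 to 446.4) were also above wild type.

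Os.7544.1.S1_at set AGR3/8 and the other lines on opposite sides of wild type. Wild type shoots read 66.1, 59.9, 187.1 and 13.4, AGR3/8 shoots 373.5, 310.0, 265.6 and 308.6, AGR1/7 shoots 0.6 to 3.0 and AGR1/8 shoots 1.8 to 5.7. Against wild type AGR3/8 was higher by 2.07 ± 0.35 (adjusted p = 0.00716). Against the mean of the other lines it was higher by 4.12 (adjusted p = 3.62e-07). It matched no gene.

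LOC4331398, chosen after its values were seen, varied among the AGR3/8 replicates. Its probe set Os.8823.1.S1_at read 0.7, 10.1, 3.7 and 8.3 in wild type shoots and 80.0, 356.9, 262.7 and 26.3 in AGR3/8 shoots. In AGR3/8 roots the same replicate numbers gave 117.1, 1392.8, 1498.4 and 80.1. Replicates 2 and 3 were thus high and replicates 1 and 4 low in both tissues of AGR3/8. AGR1/7 and AGR1/8 shoots held 673.7 to 909.0 in all 8 arrays. AGR3/8 exceeded wild type by 2.75 ± 0.43 (adjusted p = 0.00343), and was below the mean of the other lines (difference -2.47, adjusted p = 0.00249). A second probe set, Os.43929.1.S1_s_at, read 75.8, 309.8, 262.9 and 46.3 in AGR3/8 shoots against 2.1 to 11.4 in wild type. AGR3/8 replicates 2 and 3 are also those with the bright control readings above. With both left out the changes were 1.58 (adjusted p = 0.00728) and 1.68 (adjusted p = 0.000488).

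**Figure D2:**
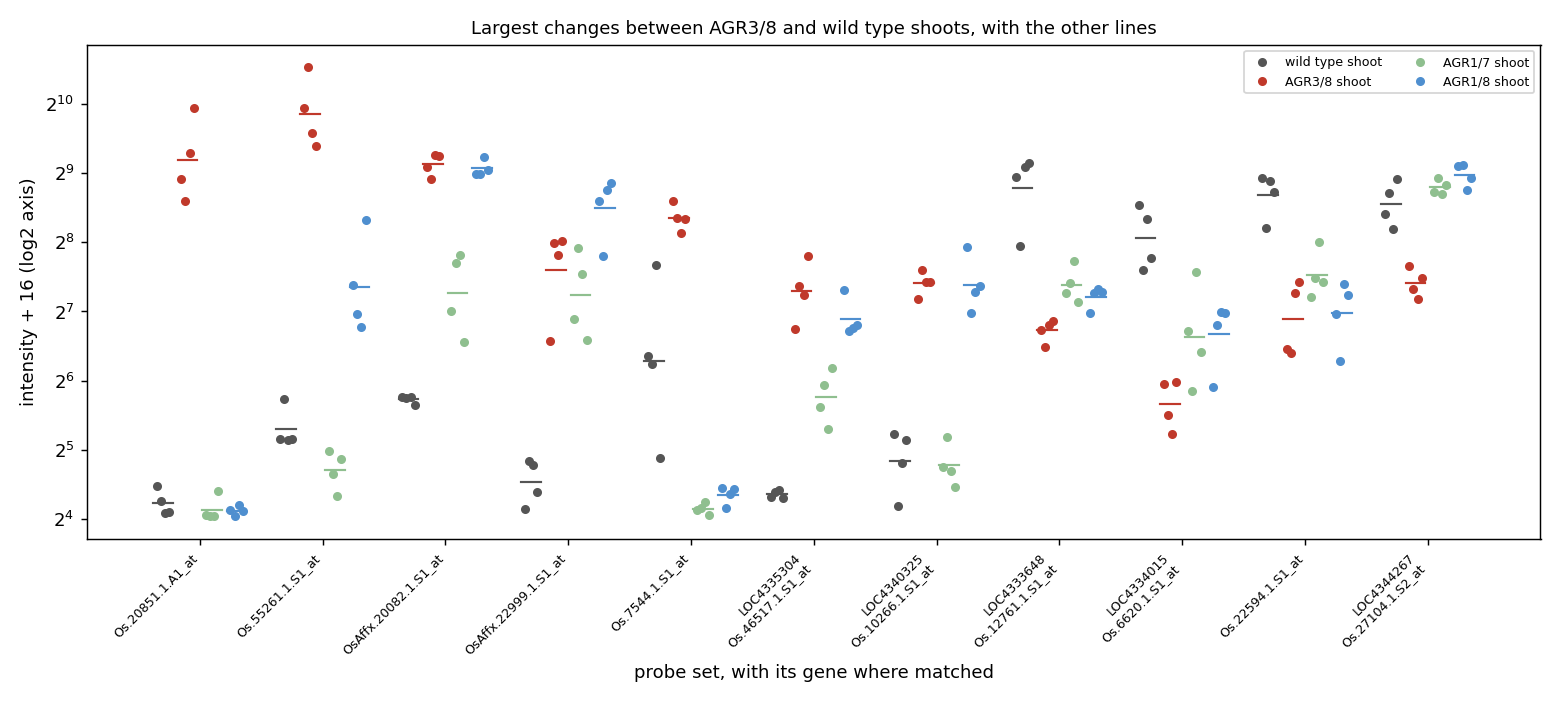
Intensity plus 16 on a log2 axis for 11 probe sets with large changes, 7 higher and 4 lower in AGR3/8, in shoots of wild type, AGR3/8, AGR1/7 and AGR1/8. Points are the 4 arrays of a group and bars are means of the log2 values. Os.20851.1.A1_at and Os.55261.1.S1_at are highest in AGR3/8, while OsAffx.20082.1.S1_at and LOC4340325 are also high in AGR1/8.

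**Figure D3:**
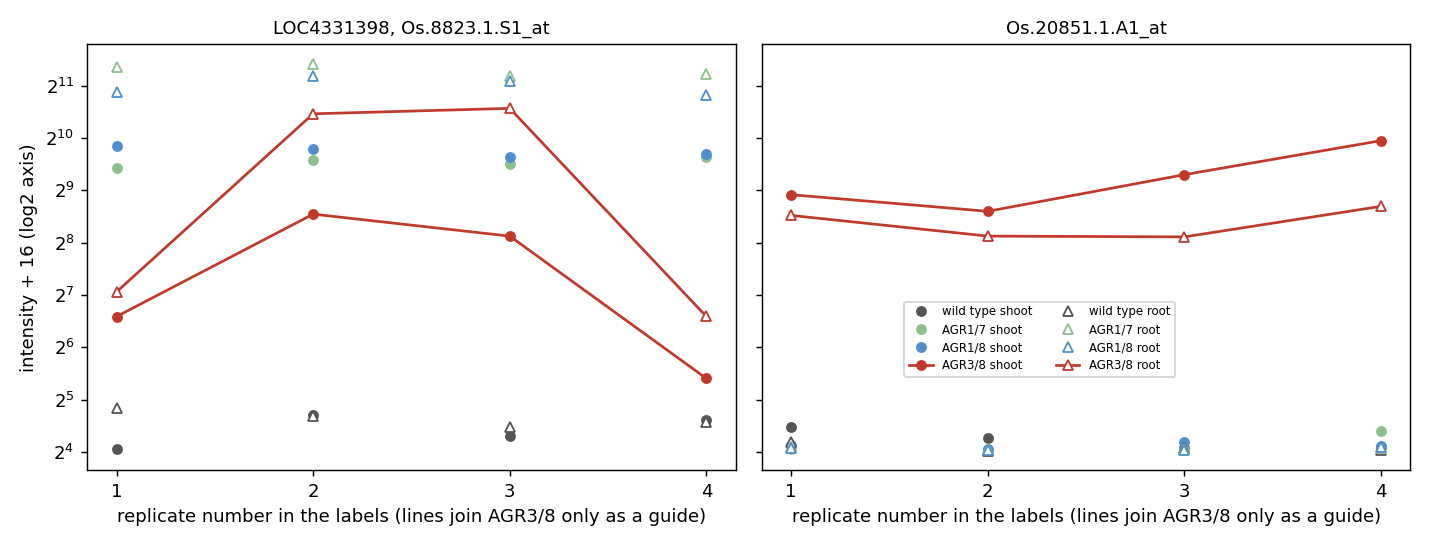
Intensity plus 16 on a log2 axis by replicate number for LOC4331398 (left) and Os.20851.1.A1_at (right), with filled circles for shoots and open triangles for roots. LOC4331398 reads 356.9 and 262.7 in AGR3/8 shoot replicates 2 and 3 but 80.0 and 26.3 in replicates 1 and 4, and Os.20851.1.A1_at is high in all 4.

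Among the lower probe sets, the largest change that kept its call under all 21 alternatives was that of LOC4334015. It read 355.7, 178.8, 308.4 and 202.8 in wild type shoots and 45.7, 29.5, 21.5 and 47.3 in AGR3/8 shoots, a change of -2.40 ± 0.31 (adjusted p = 0.000551). AGR1/7 read 41.4 to 174.8 and AGR1/8 43.9 to 111.6, so their arrays also lay below wild type, and the difference between AGR3/8 and their mean was not called (-0.99, adjusted p = 0.0583). In root AGR3/8 and wild type overlapped, and the effect in shoot minus that in root was -3.30 (adjusted p = 0.00136). In the gene table's order LOC4334015 stands beside LOC4334014, and that beside LOC4334013. LOC4334014 was lower by -1.24 ± 0.26 (adjusted p = 0.0312) and LOC4334013 by -1.75 ± 0.31 (adjusted p = 0.0111), both without overlap of the groups. LOC4334014 lost its call without any single array of wild type and without AGR3/8 replicates 2 or 3 (adjusted p up to 0.117).

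The gene order of the table was read for all tested genes placed in it. Of 16038 genes, 191 were called (1.19%). Of the 379 genes next to a called gene, 11 were called (2.90%). LOC4350822 (-1.21 ± 0.20, adjusted p = 0.00619) stood beside LOC4350823 (-1.07 ± 0.25, adjusted p = 0.0475). PAL, described below, stood beside LOC4330036 (-0.94 ± 0.16, adjusted p = 0.00944). LOC4348646, listed as HSF6, and ARD' 4 followed each other among the tested genes, both higher (1.65 and 0.70) and both described below. Their number of places apart in the gene table was not obtained. LOC4348200 and GUT1, 3 places apart with no tested gene between them, were called in opposite directions (0.94 ± 0.20 and -0.82 ± 0.18). LOC4348200 was not called without wild type replicates 1, 2 or 4 or AGR3/8 replicates 2, 3 or 4 (adjusted p up to 0.0935). LOC4350823 lost its call in 7 of 8 omissions of 1 array, with adjusted p up to 0.141, and kept it without AGR3/8 replicate 1. Neighbours of one family can share probes, and this was not tested.

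LOC4333648 was lower in AGR3/8, with 479.3, 231.7, 528.9 and 553.1 in wild type shoots and 90.8, 74.0, 96.0 and 100.7 in AGR3/8 shoots. Wild type replicate 2 was lowest in its group and still above every AGR3/8 array. The change was -2.06 ± 0.20 (adjusted p = 1.47e-05). AGR1/7 and AGR1/8 were also lower than wild type there (-1.40 and -1.57), and AGR3/8 minus their mean was not called (-0.57, adjusted p = 0.0806). Os.22594.1.S1_at, with no matched gene, read 281.1 to 471.7 in wild type and 68.3 to 155.7 in AGR3/8, a change of -1.80 ± 0.26 (adjusted p = 0.00147). It was also lower in AGR1/7 and AGR1/8 (-1.16 and -1.72), and AGR3/8 minus their mean was not called (-0.37, adjusted p = 0.433). LOC4331302 read 2181.4, 2670.8, 2794.3 and 2044.9 against 147.5, 305.7, 372.9 and 1358.6, a change of -2.56 ± 0.53 (adjusted p = 0.0317; -2.63 and 0.0379 under quantile normalization). AGR3/8 replicate 4 lay nearest to wild type there, and the call was lost without wild type replicates 1, 2 or 3 or AGR3/8 replicates 2 or 3 (adjusted p up to 0.0977). LOC4344267 was lower than in wild type (-1.15 ± 0.14, adjusted p = 0.000232) and than in the other lines (-1.48, adjusted p = 1.64e-06), with 128.6 to 187.0 in AGR3/8 shoots, 276.4 to 469.5 in wild type and 399.6 to 538.6 in the other lines.

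The named genes whose calls held without each array in turn and under quantile normalization were all lower in AGR3/8. They were LEA19, CH16, MPH1, GLK2 and PRR37. LEA19, listed also as LEA3, belongs to the late embryogenesis abundant proteins, which accumulate in drying seeds and water-stressed tissue. It read 356.9, 138.5, 283.8 and 163.1 in wild type shoots and 91.7, 11.2, 23.1 and 25.6 in AGR3/8 shoots. The groups did not overlap, with AGR3/8 replicate 1 the closest to wild type, and the change was -2.34 ± 0.35 (adjusted p = 0.00247). The other lines read 50 to 114.1, all below the wild type arrays, and AGR3/8 minus their mean was not called (-1.05, adjusted p = 0.0687). In wild type and AGR3/8 roots LEA19 was at 27.1 or lower, with 1 AGR1/7 root array at 71.1, and the effects in the tissues differed (shoot minus root -2.27, adjusted p = 0.0369).

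CH16, listed also as Cht1, encodes a chitinase, an enzyme that cleaves the chitin of fungal walls. Its shoot intensities were 518.2, 294.5, 490.2 and 625.0 in wild type and 159.3, 120.9, 162.6 and 149.5 in AGR3/8. Every AGR3/8 array was below every wild type array, by -1.56 ± 0.17 (adjusted p = 0.000101). It was the one named gene that kept its call under all 21 alternatives. AGR1/7 read 188.6 to 273.8 and AGR1/8 177.6 to 259.5, and AGR3/8 minus their mean was not called (-0.54, adjusted p = 0.0617).

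The other named genes with calls of this kind are regulators. GLK2, a Golden2-like transcription factor that promotes chloroplast development, read 168.7, 98.5, 103.0 and 89.5 in wild type and 57.9, 46.7, 56.7 and 36.1 in AGR3/8, a change of -0.98 ± 0.17 (adjusted p = 0.0111). MPH1, a MYB transcription factor listed also as MYB45, read 215.8, 113.5, 111.1 and 110.9 against 42.7, 50.7, 65 and 75.7, a change of -1.01 ± 0.18 (adjusted p = 0.0111). Against wild type the changes in AGR1/7 and AGR1/8 were -0.88 and -0.65 for GLK2 and -0.70 and -0.55 for MPH1. Among these only that of GLK2 in AGR1/7 was called (adjusted p = 0.0109). AGR3/8 minus the mean of these lines was not called for either gene (-0.21 and -0.39, adjusted p = 0.521 and 0.191). Wild type replicate 1 was highest for both genes. Neither call was lost without it on the deposited scale, but both were lost without it under quantile normalization (adjusted p = 0.0736 for GLK2 and 0.0509 for MPH1). PRR37, a pseudo-response regulator of the clock that delays flowering in long days and is listed also as DTH7, read 261.2, 266.5, 231.1 and 260.8 against 146.4, 185.5, 141.7 and 153.7, a change of -0.65 ± 0.11 (adjusted p = 0.00693). For PRR37 AGR3/8 was also below the other lines (-0.36, adjusted p = 0.0465) and its shoot effect lay below its root effect (-0.94, adjusted p = 0.0215). Without AGR3/8 replicates 2 and 3 GLK2, MPH1 and LEA19 were not called, while PRR37 and CH16 were. The PRR37 call was lost under quantile normalization without wild type replicate 1 (adjusted p = 0.0683).

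The remaining named lower genes had calls that were lost when any of several single arrays was left out, while the changes kept their direction. Over the 8 omissions the change ran from -1.66 to -1.20 for the first ML probe set and from -1.66 to -1.27 for HSP81-1. It ran from -1.14 to -0.93 for CAD2, -1.15 to -0.86 for PAL, -0.94 to -0.70 for MT1B and -0.81 to -0.56 for PIP2;4. ML, listed also as salT and encoding a mannose-binding lectin induced by salt, read 95.7, 46.5, 146.0 and 73.5 in wild type shoots and 17.2, 15.2, 21.9 and 32.6 in AGR3/8 shoots. The change was -1.43 ± 0.32 (adjusted p = 0.0426), and its second probe set changed by -1.22 ± 0.26 (adjusted p = 0.0329). In roots ML was bright and overlapped between the groups (3231.2 to 6551.9 in wild type and 6041.1 to 7100.7 in AGR3/8), and the shoot effect minus the root effect was -1.77 (adjusted p = 0.0144). The call in shoot was lost without wild type replicates 1, 3 or 4 or AGR3/8 replicates 2, 3 or 4, with adjusted p up to 0.124. For the second probe set it was lost without wild type replicates 1 or 3 or AGR3/8 replicates 2 or 3, with adjusted p up to 0.109.

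HSP81-1, a cytosolic chaperone of the HSP90 family, read 365.4, 232.5, 272.6 and 282.4 in wild type and 76.7, 89.9, 71.9 and 180.5 in AGR3/8, a change of -1.40 ± 0.32 (adjusted p = 0.0446). MT1B, a metallothionein that binds metals through its cysteines, read 99.9, 87.1, 153.4 and 148.4 against 69.3, 59.6, 70.2 and 47.9, a change of -0.81 ± 0.18 (adjusted p = 0.0406). Neither gene overlapped between the groups. MT1B was also lower than wild type in AGR1/7 (-0.80, adjusted p = 0.0250 in limma) and AGR1/8 (-0.99, adjusted p = 0.00653). For MT1B AGR3/8 minus the mean of these lines was 0.09 (adjusted p = 0.831). HSP81-1 was not called without any 1 wild type array or without AGR3/8 replicates 2 or 3 (adjusted p up to 0.145). MT1B was not called without wild type replicates 1, 3 or 4 or AGR3/8 replicates 2, 3 or 4 (adjusted p up to 0.107). Under quantile normalization the adjusted p was 0.0783 for HSP81-1 and 0.0798 for MT1B.

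Of 40 tested probe sets in the list of phenylpropanoid, lignin and flavonoid genes, 2 were called lower and none higher, beside 0.412% lower over all probe sets. The median change of the list was -0.12, beside -0.02 over all. PAL, phenylalanine ammonia-lyase, which opens the phenylpropanoid pathway, read 602.8, 481.7, 452.0 and 437.6 in wild type and 165.0, 243.3, 233.6 and 317.3 in AGR3/8, a change of -1.02 ± 0.21 (adjusted p = 0.0317). CAD2, a cinnamyl alcohol dehydrogenase that makes the alcohols built into lignin, read 374.6, 343.8, 346.0 and 434.2 against 174.0, 143.6, 165.8 and 231.9, a change of -1.02 ± 0.22 (adjusted p = 0.0366). Neither overlapped between the groups. PAL lost its call without wild type replicates 1, 2 or 3 or AGR3/8 replicates 2 or 3 (adjusted p up to 0.0931), and CAD2 without any 1 wild type array or AGR3/8 replicates 2 or 3 (adjusted p up to 0.113). Under quantile normalization neither was called (adjusted p = 0.0586 and 0.0709). PAL genes form a family of similar sequences, and whether the probe set reads several members was not tested.

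In the list of aquaporins, the channels that carry water across membranes, and silicon transporters, 1 of 27 tested probe sets was higher and 1 lower, beside 0.456% and 0.412% over all. Both are aquaporins. PIP2;4, of the plasma membrane group, read 158.0, 279.3, 213.1 and 185.8 in wild type and 132.4, 107.2, 100 and 145.3 in AGR3/8, a change of -0.70 ± 0.15 (adjusted p = 0.0336). TIP4;1, of the vacuolar membrane group, read 460.9, 880.0, 1018.3 and 1089.7 against 1475.6, 2022.2, 2426.2 and 1573.9, a change of 1.15 ± 0.21 (adjusted p = 0.0157) that was 1.01 under quantile normalization (adjusted p = 0.0333). Neither overlapped between the groups. TIP4;1 read 1932.7 to 2275.3 in AGR1/7 and 1565.1 to 2364.3 in AGR1/8, and AGR3/8 minus their mean was -0.18 ± 0.19 (adjusted p = 0.678). TIP4;1 was not called without AGR3/8 replicates 2 or 3 (adjusted p up to 0.0735), nor PIP2;4 without wild type replicates 2 or 3 or AGR3/8 replicates 2 or 3 (adjusted p up to 0.123).

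The lower named genes with smaller changes were GUT1 (-0.82), DI1 (-0.63), the U-box protein gene PUB4 (-0.56), the aldolase gene ALDP (-0.56), the DNA demethylase gene DNG701 (-0.48), the stress-associated SAP15 (-0.45), the splicing factor gene U2AF65A (-0.42) and the translation factor gene eIF-4G (-0.41). Of these, PUB4 read 402.0 to 651.2 in wild type and 321.3 to 366.9 in AGR3/8, and eIF-4G overlapped between the groups. Each of the 8 lost its call in at least 6 of the 8 omissions of 1 array and kept it without AGR3/8 replicate 1. Their highest adjusted p over these omissions lay between 0.0798, for PUB4, and 0.148, for eIF-4G.

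**Figure D4:**
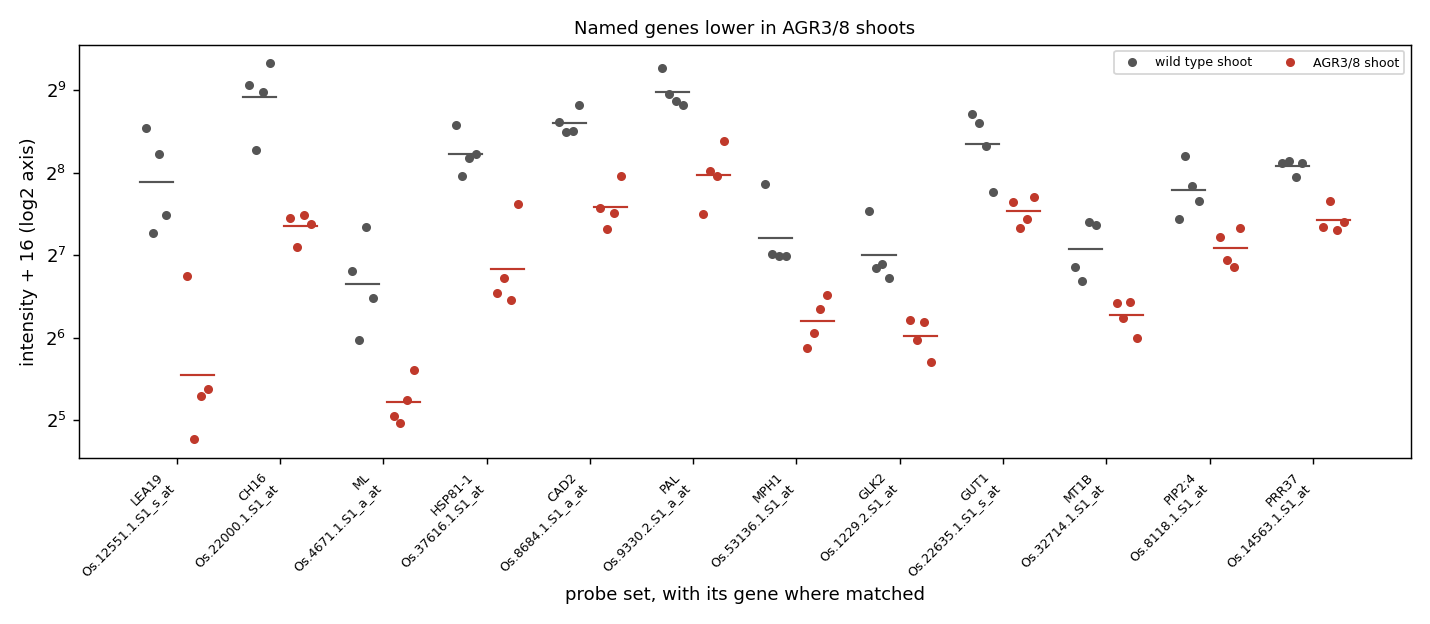
Intensity plus 16 on a log2 axis for the 12 named genes with the largest lower changes, in the 4 wild type and 4 AGR3/8 shoot arrays, with bars at the means of the log2 values. In each of the 12 every AGR3/8 array lies below every wild type array, from 11.2 to 91.7 for LEA19 against 138.5 to 356.9.

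Of the 17 named higher calls 6 were also called under quantile normalization, and of the 20 named lower calls 9. LIR1, a light-induced chloroplast protein, read 5727.5, 6624.5, 6307.7 and 6772.4 in wild type and 7634.2, 15218.4, 14221.1 and 10559.6 in AGR3/8. The groups did not overlap, and AGR3/8 replicates 2 and 3 were highest, as for the control transcripts. The change of 0.86 ± 0.18 (adjusted p = 0.0301) was 0.19 under quantile normalization (adjusted p = 0.148). GOS2, a translation initiation factor gene expressed in most tissues, changed by 0.79 ± 0.18 (adjusted p = 0.0466), and by 0.09 under quantile normalization (adjusted p = 0.480). ARD' 4, an acireductone dioxygenase of the methionine salvage cycle, read 4133.3, 5047.3, 4662.7 and 4629.3 against 5872.7, 9540.4, 8492.4 and 6656.0, a change of 0.70 ± 0.14 (adjusted p = 0.0301) that was 0.15 under quantile normalization (adjusted p = 0.409). PRXIIC, a peroxiredoxin that reduces peroxides, changed by 0.57 ± 0.13 (adjusted p = 0.0430), and by 0.09 under quantile normalization (adjusted p = 0.631). A chaperonin gene, LOC4340394, changed by 0.62 ± 0.11 (adjusted p = 0.00752) and by 0.29 under quantile normalization (adjusted p = 0.157). It kept its call without each array in turn.

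The calls of the other bright genes just described were lost when any of several single arrays was left out, while the changes kept their direction. Over these omissions the change ran from 0.72 to 1.05 for LIR1, 0.63 to 0.96 for GOS2, 0.59 to 0.82 for ARD' 4 and 0.49 to 0.67 for PRXIIC. LIR1 lost its call without wild type replicates 1, 2 or 3 or AGR3/8 replicates 2 or 3 (adjusted p up to 0.106). ARD' 4 lost it without any 1 wild type array or AGR3/8 replicates 2 or 3 (adjusted p up to 0.102). GOS2 and PRXIIC kept it in 1 omission, that of AGR3/8 replicate 1, with adjusted p up to 0.145 and 0.140 in the others.

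Of the 6 named higher calls that were kept under quantile normalization, 4 are described next. MRL7L read 337.4, 369.7, 317.9 and 407.0 in wild type and 543.5, 486.2, 483.4 and 517.0 in AGR3/8, a change of 0.49 ± 0.09 (adjusted p = 0.0151) that was 0.52 under quantile normalization (adjusted p = 0.00999). CHL1, a subunit of the magnesium chelatase that begins the chlorophyll branch, read 651.5, 630.7, 613.6 and 698.3 against 804.9, 857.9, 873.8 and 994.1, a change of 0.43 ± 0.09 (adjusted p = 0.0341; 0.40 and 0.0333 under quantile normalization). ASL1, named for albino seedlings, changed by 0.58 ± 0.11 (adjusted p = 0.0183; 0.44 and 0.0387 under quantile normalization). EGY2 changed by 0.41 ± 0.09 (adjusted p = 0.0314; 0.35 and 0.0359 under quantile normalization). The groups did not overlap for any of the 4. The differences of AGR1/7 and AGR1/8 from wild type were 0.46 and 0.47 for MRL7L, 0.57 and 0.52 for CHL1, 0.59 and 0.52 for ASL1 and 0.21 and 0.27 for EGY2. These comparisons share the wild type arrays. MRL7L lost its call without wild type replicate 3 (adjusted p = 0.0636). ASL1 lost it without wild type replicates 2 or 3 or AGR3/8 replicates 3 or 4 (adjusted p up to 0.0756). CHL1 lost it without wild type replicates 1, 2 or 3 or AGR3/8 replicates 2, 3 or 4 (adjusted p up to 0.0973), and EGY2 in every omission but that of AGR3/8 replicate 1 (adjusted p up to 0.106).

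LOC4348646 read 64.5, 90.8, 71.3 and 95.0 in wild type and 251.4, 299.9, 290.6 and 293.5 in AGR3/8, a change of 1.65 ± 0.37 (adjusted p = 0.0426). The gene table lists this gene under names of a heat shock factor (HSF6) and of an acireductone dioxygenase (ARD1), and as a transcribed pseudogene, so its product is uncertain, and it counts in 3 of the lists below. It was also high in AGR1/7 (256.8 to 355.1) and in 3 of 4 AGR1/8 arrays. Its call was kept in 1 of 8 omissions, that of AGR3/8 replicate 1 (adjusted p up to 0.123 in the others). ITPK3, an inositol phosphate kinase, changed by 0.73 ± 0.17 (adjusted p = 0.0480), and RRF, a ribosome recycling factor, by 0.56 ± 0.11 (adjusted p = 0.0251; 0.36 and 0.0871 under quantile normalization). The smallest named higher changes were those of gKOCIII (0.45), the glycolytic GAPC3 (0.43), the formaldehyde dehydrogenase gene FALDH (0.40) and the methionine sulfoxide reductase gene MSRB3 (0.34), none of them called under quantile normalization, where the changes were 0.25 (adjusted p = 0.211) for gKOCIII, 0.23 (adjusted p = 0.25) for GAPC3, 0.21 (adjusted p = 0.149) for FALDH and 0.23 (adjusted p = 0.126) for MSRB3. ITPK3, gKOCIII, FALDH and MSRB3 kept their call in 1 of 8 omissions, GAPC3 in 2 and RRF in 3, with adjusted p in the others up to 0.159 for ITPK3.

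Gene lists are described by counts and medians, beside 0.456% higher, 0.412% lower and a median of -0.02 over all probe sets. The list of abscisic acid and dehydration genes had 3 of 89 tested probe sets lower, that of LEA19 and both of ML, and none higher. Its median was -0.09. All AGR3/8 arrays lay below all wild type arrays at 17 of the 89, beside 4.24% over all probe sets tested. It had 1 call without wild type replicate 1 or AGR3/8 replicates 2 or 3, and 6 without AGR3/8 replicate 1. Amino acid synthesis had 2 of 30 higher, LOC4348646 and ARD' 4, which follow each other among the tested genes, with a median of -0.12. Heat shock proteins and factors had 2 higher and 1 lower of 78, with a median of 0.01. Transcription factor families had 1 higher and 1 lower of 196. Defence, clock, flowering, metal homeostasis and translation lists had 1 lower call each and none higher, and chlorophyll and redox lists 1 higher call each. Glycolysis and respiration had 1 higher and 1 lower. No member was called in 15 of the 29 lists, which include sugar and starch (81 tested), cell wall (82), auxin (60), cytokinin (33), calcium kinases (94) and cell cycle (117). At an unadjusted p under 0.05, 6.77% of all probe sets tested were higher and 7.88% lower. Calcium kinases had 6 higher and 22 lower (6.38% and 23.4%), abscisic acid and dehydration 1 and 21 (1.12% and 23.6%), defence 2 and 16 (2.94% and 23.5%) and transcription factors 9 and 33 (4.59% and 16.8%). Gibberellin and brassinosteroid genes had 3 and 8 (10% and 26.7%), phosphate genes 1 and 6 (3.57% and 21.4%) and phenylpropanoid genes 1 and 8 (2.5% and 20%). Cell wall genes had 2 and 11 (2.44% and 13.4%) and sugar and starch genes 3 and 10 (3.70% and 12.3%). Both directions together made 15.9% and 16% of the tested probe sets of these last 2 lists, near the 14.7% over all. Aquaporins and silicon transporters had 7 and 6 of 27 (25.9% and 22.2%). On the higher side, photosynthesis had 14 of 26 (53.8%), chlorophyll 8 of 17 (47.1%) and clock 3 of 9 (33.3%). Glycolysis and respiration had 12 of 40 (30%) and redox 22 of 85 (25.9%). The lower shares of these 5 lists were 3.85%, 5.88%, 11.1%, 7.5% and 8.24%. These lists are brighter, with a median of the mean log2 values of 11.3, 8.3, 10.3, 9.4 and 9.0, beside 5.9 over all. Their median changes were 0.38, 0.13, 0.07, 0.02 and 0.07. Under quantile normalization the medians were -0.0046, 0.09, 0.05, -0.02 and 0.02. The part of the brightness shift in their higher shares was not tested.

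The nitrogen lists, to which the transgene's enzyme belongs by function, held no called probe set. None of 17 probe sets for ammonium and nitrate assimilation was called in limma, with a median change of 0.08. At an unadjusted p under 0.05, 4 were higher (23.5%, beside 6.77% over all) and none lower. None of 17 for nitrogen transport was called, with a median of -0.21. At an unadjusted p under 0.05, 1 was lower (5.88%, beside 7.88% over all) and none higher. The brightest assimilation gene, Fd-GOGAT, the ferredoxin-dependent glutamate synthase of leaves, read 4707.7, 5171.3, 6013.2 and 5372.0 in wild type and 5767.4, 10120.4, 9416.3 and 7155.6 in AGR3/8. The groups overlapped, the difference was 0.58 ± 0.15 (adjusted p = 0.0724), and under quantile normalization it was -0.012. Os.7907.2.S1_x_at, which shares the design number of the Fd-GOGAT probe sets but matched no gene and so is in no list, was called higher. It read 3911.9, 4475.3, 4350.2 and 4188.4 in wild type and 4893.8, 8217.0, 6701.8 and 6142.5 in AGR3/8, without overlap, a change of 0.59 ± 0.14 (adjusted p = 0.0467; 0.11 and 0.532 under quantile normalization). Without AGR3/8 replicate 1, 3 assimilation probe sets were called higher. AMT1, an ammonium transporter, read 1005.8, 1014.9, 967.3 and 892.0 against 923.3, 1056.4, 925.0 and 927.7, a difference of -0.02 ± 0.08 (adjusted p = 0.954). AMT1 was lower in the other lines, at 582.7 to 914.2, and AGR3/8 exceeded their mean by 0.44 (adjusted p = 0.00514).

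None of the 26 tested probe sets for photosynthesis was called in limma. At an unadjusted p under 0.05, 14 were higher and 1 lower (53.8% and 3.85%, beside 6.77% and 7.88% over all). Their median change was 0.38, the highest of the 29 lists, and it was -0.0046 under quantile normalization. On the deposited scale all 4 AGR3/8 arrays lay above all 4 wild type arrays at 7 of the 26, beside 3.53% over all probe sets tested. rcaA1, the Rubisco activase that keeps Rubisco active, read 8675.8, 9511.6, 10397.3 and 9733.6 in wild type and 10348.9, 23283.7, 19419.0 and 13353.5 in AGR3/8, with AGR3/8 replicate 1 inside the wild type range. The difference was 0.72 ± 0.20 (adjusted p = 0.0815), and -0.012 under quantile normalization. Without AGR3/8 replicate 1, 15 of the 26 were called, all higher. The CreX and BioDn readings of AGR3/8 replicate 1 lay within the wild type range.

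**Figure D5:**
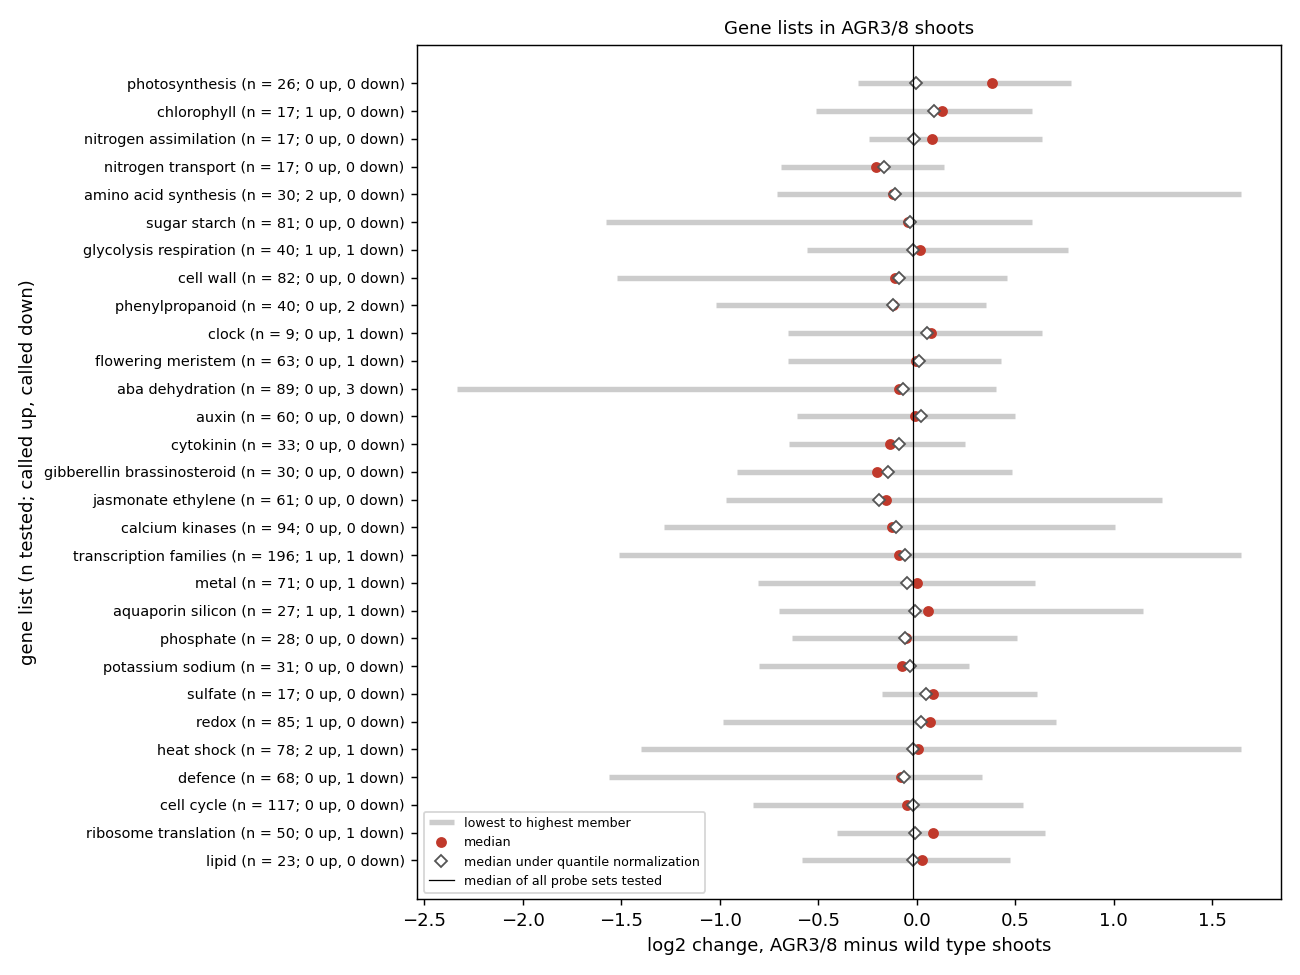
Log2 change (AGR3/8 minus wild type shoots) for 29 gene lists, with a bar from the lowest to the highest tested member, a filled point at the median and an open diamond at the median under quantile normalization. The vertical line is the median of all 38129 probe sets tested, -0.02. The photosynthesis median is 0.38, and -0.0046 under quantile normalization.

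Marker lists were read for the tissue labelled. Of 16 green shoot markers 15 were above 16 in shoot, and their summed intensity was 74477.3 to 88847.5 in wild type shoots, 88587.4 to 178748 in AGR3/8 shoots and 544.6 to 904.9 in wild type roots. The 15 root markers summed to 2314.8 to 2744.1 in wild type shoots, 1651.2 to 3659.7 in AGR3/8 shoots and 14231.0 to 25734.1 in wild type roots. Of the 15, 9 were above 16 in shoot. NAAT1 had a mean of 1202.8 in wild type shoots, 760.9 in AGR3/8 shoots and 1200.2 in wild type roots, so its wild type means in shoot and root were close. The brighter HAK1 probe set (519.5 and 675.6 in the shoots, 1631.8 in wild type roots), Lsi1 (290.6 and 233.8, 6154.9) and AKT1 (149.6 and 129.9, 640.2) were also read in shoots. The silicon transporter Lsi2 and the nicotianamine synthase NAS1 were near 0 there (mean 0.975 and 2.28 in wild type, 1.48 and 5.4 in AGR3/8). Floral markers summed to 701.9 to 905.5 and 761.3 to 943.9, and markers of dividing tissue to 1198.4 to 1269.7 and 1190.2 to 1310.5. Of 24 floral and 30 dividing-tissue probe sets, 10 and 7 were above 16 in shoot. Much of each sum came from a single probe set. MADS18 had means of 488.9 in wild type and 525.2 in AGR3/8 shoots. OSH45 had 681.2 and 655.3, and 685.8 in wild type roots. The sums therefore say little about floral or dividing tissue. No marker was called in any of the 4 lists in limma. At an unadjusted p under 0.05, 10 green shoot markers (62.5%) and 1 of dividing tissue (7.14%) were higher, beside 6.77% over all. Most green shoot markers are bright, and several share a gene name, as for rcaA1, rbcS and CAB2R. In the brightness class of 12 and over the median change of all probe sets was 0.62, and -0.0006 under quantile normalization. The part of this shift in the green shoot markers was not tested. Of the 12 root markers tested, 2 were lower (16.7%), beside 7.88% over all. The part of the green shoot sums in other results was not tested. In these bulk samples fewer cells of a type and less RNA per cell cannot be told apart.

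AGR3/8 also differed from the other lines. With no wild type array in the contrast, 1012 probe sets were called (2.65%), 484 higher and 528 lower in AGR3/8 than in the mean of AGR1/7 and AGR1/8, and 113 were called without AGR3/8 replicate 2, 196 without AGR3/8 replicate 3 and 1876 without AGR3/8 replicate 1. The count was 511 without AGR1/7 replicate 3 and 523 without AGR1/8 replicate 4. The largest same-sign differences among probe sets called against wild type too were those of Os.20851.1.A1_at, its second probe set, Os.7544.1.S1_at and Os.55261.1.S1_at above, LOC4338477 (1.59) and LOC4348200 (1.46). LOC4338477 read 365.7, 912.6, 869.3 and 1454.8 in wild type shoots and 1668.5, 2826.4, 3794.5 and 2163.3 in AGR3/8 shoots, without overlap. Its call against wild type was lost without wild type replicates 1, 2 or 3 or AGR3/8 replicates 2, 3 or 4 (adjusted p up to 0.130), and under quantile normalization (1.41, adjusted p = 0.0749). On the lower side stood LOC4331302 (-1.89), LOC4344267 (-1.48), OsAffx.15518.1.A1_x_at (-1.09), Os.27693.1.S1_at (-1.09), LOC4337486 (-1.07) and Os.27542.1.A1_at (-0.99). Of these, Os.27542.1.A1_at and LOC4337486 each lost their call against wild type in 6 of 8 omissions of 1 array, with adjusted p up to 0.128 and 0.145. Os.27693.1.S1_at lost it without wild type replicates 2 or 4 or AGR3/8 replicates 2 or 3 (adjusted p up to 0.0820).

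The effect in shoot was set against that in root of the same line. The difference of the effects was called at 857 probe sets (2.25%), 330 with the shoot effect above the root effect and 527 below. Leaving out 1 root array gave 292 (AGR3/8 replicate 3), 402 (AGR3/8 replicate 2), 491 (AGR3/8 replicate 4), 461 (wild type replicate 1), 567 (wild type replicate 3) and 1733 (wild type replicate 2). Leaving out 1 shoot array gave 418 (AGR3/8 replicate 2), 445 (AGR3/8 replicate 3), 1370 (AGR3/8 replicate 1), 424 (wild type replicate 2) and 529 (wild type replicate 3). In root alone AGR3/8 minus wild type gave 2064 calls (5.41%). Of the 303 shoot calls tested in root, 51 were called in root with the same sign (16.8% of the shoot list, and 2.73% of the 1867 root calls tested in shoot), and 3 with the opposite sign. Root and shoot comparisons share no array.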

How the data were processed

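Each deposited intensity is one value per probe set and array on a linear scale, placed in the series' value table by the authors. Trimmed means near 100 on every array show a common scaling per array, seen from the values. The sources used here do not name the software. No further scaling was applied. Of 57381 probe sets, 187 controls (64 of them reporter probe sets) and then the dimmest 33.3% by mean over the fit's arrays were left out. Values were log2(intensity + 16). limma 3.58.1 in R 4.3.3 (lmFit, eBayes with trend, Benjamini-Hochberg) fitted the 16 shoot arrays, and 32 arrays for shoot against root. No pair among 496 array pairs was identical. The number of arrays limits the precision.

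Names came from the platform annotation and the RefSeq gene table of assembly ASM3414082v1, used for names and gene order. 22436 probe sets matched 1 gene, 95 several and 34663 none, and 3193 have a descriptive name. The members and lists were chosen with earlier results of these data known. Named genes were the 12 higher and 12 lower named genes and, among all probe sets, the 6 largest called changes in each direction, up to 4 called members per list or else its brightest, the 6 higher and 6 lower with the largest difference from the other lines, and the 5 with the largest tissue difference. The text names part of them, and in addition LOC4340325, LOC4331398, the neighbours LOC4334014, LOC4350822, LOC4350823 and LOC4330036, the extra probe set of LOC4335304, Os.7907.2.S1_x_at and the remaining named called genes, chosen after their values were seen. The fit was run on simulated data with known changes and independent noise of equal spread on every array. The simulation held no brightness shift and no outlying array, so it cannot show how these affect the calls. Probe sets ending in _s_at or _x_at can read several transcripts.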

Additional observations from a re-analysis of the deposited data

Results flagged for a closer look

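One of 64 reporter probe sets, left out of the comparison, gave a signal. RPTR-Os-K01193-1_at, whose target the files do not name, read 2529.4, 4419.3, 3281.4 and 2933.7 in AGR3/8 shoots (mean 3291.0) and 0.5, 1.7, 1.2 and 99.6 in wild type shoots, where replicate 4 was the high array. The other reporters stayed at or below 39.3 on these arrays. The shoots of the other lines read 3417 to 9648.6 there.

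The 4 arrays of a group were checked for 1 that stood apart by Dixon's ratio, the gap to the nearest array over the group's range on the log2 scale, against Dixon's critical value for 4 samples. The ratio was taken in wild type shoots and in AGR3/8 shoots at each of 65 called probe sets named in the text. It was also taken at Fd-GOGAT, rcaA1 and AMT1. Chance flags about 1 in 20 groups, so some flags are expected among so many groups. Among wild type shoots the ratio was 0.966 for MPH1 and 0.966 for Os.55261.1.S1_at, 0.907 for GAPC3, 0.906 for OsAffx.20082.1.S1_at, 0.848 for PRR37, 0.844 for U2AF65A and 0.833 for LOC4333648. Among AGR3/8 shoots it was 0.965 for AMT1, 0.910 for eIF-4G, 0.893 for LOC4337486, 0.860 for OsAffx.22999.1.S1_at and 0.855 for OsAffx.15518.1.A1_x_at.

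The AGR3/8 effect differed between shoot and root (shoot minus root, log2, limma interaction called under an adjusted p of 0.05) at these named probe sets. LEA19 among them was near background in root, where a fall could hardly be read. The effect in shoot was above that in root by 3.98 for Os.55261.1.S1_at, by 2.86, 2.76 and 2.63 for the probe sets of LOC4335304, by 1.40 for OsAffx.20082.1.S1_at, 1.22 for ARD' 4, 1.01 for TIP4;1, 0.99 for the chaperonin and 0.99 for ASL1, 0.84 for RRF and 0.83 for PRXIIC. For ARD' 4, the chaperonin, ASL1, RRF and PRXIIC the root changes were below 0 (-0.52, -0.37, -0.41, -0.27 and -0.26). Under quantile normalization the shoot changes of these genes were 0.15, 0.29, 0.44, 0.36 and 0.09. The difference was -3.49 for OsAffx.22999.1.S1_at, -3.30 for LOC4334015, -2.27 for LEA19, -2.02 for Os.22594.1.S1_at, -1.96 for LOC4334013, -1.78 for LOC4350822, -1.77 and -1.63 for ML, -1.67 for LOC4340325, -1.39 for LOC4334014, -1.29 for MPH1, -1.20 for OsAffx.15518.1.A1_x_at, -1.07 for MT1B, -0.94 for PRR37, -0.88 for PAL, -0.71 for PIP2;4 and -0.71 for SAP15.

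AGR3/8 differed from the mean of AGR1/7 and AGR1/8 (log2, the same threshold) by 5.06 and 4.46 at Os.20851.1.A1_at and Os.20851.1.A1_x_at, 4.12 at Os.7544.1.S1_at, 3.83 at Os.55261.1.S1_at, 1.59 at LOC4338477, 1.46 at LOC4348200, 1.33 at LOC4340325, 0.96 at OsAffx.20082.1.S1_at, 0.96 at LOC4335304, 0.70 at ARD' 4, 0.54 at PRXIIC, 0.38 at GAPC3, 0.38 at gKOCIII and 0.29 at MSRB3. It was lower, by differences of -2.47 and -2.34 at LOC4331398, -1.89 at LOC4331302, -1.48 at LOC4344267, -1.09 at OsAffx.15518.1.A1_x_at, -1.09 at Os.27693.1.S1_at, -1.07 at LOC4337486, -0.99 at Os.27542.1.A1_at, -0.36 at PRR37, -0.35 at DNG701 and -0.35 at U2AF65A. These differences are on the deposited scale. Under quantile normalization the changes against wild type were 0.15 for ARD' 4, 0.09 for PRXIIC and 0.25 for gKOCIII.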

How the results depend on the processing

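The count of 331 calls against wild type became 202 under quantile normalization, 156 with no filter on dim probe sets, 591 with array weights, 105 with the 8 arrays alone, 681 with all 32 arrays in the fit and 140 with a variance prior without trend. Added after seeing the data, it was 50 without AGR3/8 replicates 2 and 3, and 100 under quantile normalization without wild type replicate 1. Over omissions of 1 array it ran from 107 to 1411. Median centring gave 99 higher and 155 lower, beside 174 and 157 as reported, and array weights 391 and 200. With the replicate number as a block, 882 were called against wild type, 1453 against the other lines and 928 in the tissue difference. By the rule used, that every same-number pair correlate above 0.1, the samples were treated as unpaired, also in the tissue difference. This cutoff does not settle whether the numbers pair the samples. LOC4331398 followed the replicate number in both tissues of AGR3/8. Same-number deviations of wild type and AGR3/8 shoots correlated at -0.01, 0.02, 0.02 and -0.01, and those of AGR3/8 shoots and roots at -0.0053 to 0.034. For wild type shoots and roots, used in the tissue difference, they were 0.23, 0.10, 0.04 and 0.08, against -0.18 to 0.09 for unlike numbers.

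The 1012 calls against the other lines became 579 under quantile normalization, 568 with no filter, and 113 to 1876 over omissions of 1 array. The 857 of the tissue difference became 594 with a pseudocount of 1, 508 with no filter, and 292 to 1733 over omissions of 1 array. The cause was not tested. None of the 65 called probe sets followed through the alternatives, which leave out Os.7907.2.S1_x_at, turned in direction under any of the 21. Of these, 26 lost their call under quantile normalization and 48 without AGR3/8 replicates 2 and 3. Fd-GOGAT and rcaA1, not called, turned to -0.0125 and -0.0119 under quantile normalization, and to -0.0186 and -0.0084 with wild type replicate 1 left out as well. AMT1, not called, lay between -0.0651 and 0.0039 over omissions of 1 array. On the 8 arrays 47.9% to 51.2% of probe sets read under 16, where the added 16 compresses changes.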

Other observations

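Probe sets with neighbouring numbers in their names were lower together. Among those named OsAffx.32200 to OsAffx.32299, 13 of 122 tested were called lower and 1 higher, against 0.412% lower over all probe sets. Over the other runs of 100 such numbers no run had more than 2 calls, of 324 runs in all. Runs differed in the number tested. The run from 10000 to 10099 had 2 higher calls of 19 tested, and that from 32300 to 32399 had 2 lower of 75. None of the 14 called from OsAffx.32200 to OsAffx.32299 matched a gene in the annotation used here, so their transcripts are not named. The run from OsAffx.32200 was chosen after its values were seen and is given with no test. OsAffx.32253.1.S1_x_at read 818.3, 823.1, 909.0 and 828.5 in wild type shoots and 429.9, 352.9, 368.1 and 447.2 in AGR3/8 shoots, a difference of -1.06 (adjusted p = 9.75e-06 in limma). OsAffx.32254.1.S1_x_at read 1375.4 to 1646.2 against 601.8 to 901.4. The other lines lay between, at 627.8 to 799.8 for OsAffx.32253.1.S1_x_at, and AGR3/8 roots, at 406.3 to 1036.7, overlapped wild type roots. The suffix of both names marks probes that can read several similar transcripts.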
